A study of Mus musculus with 12 samples.

Results

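The Ugt2 and Ugt3 genes encode UDP-glycosyltransferases, and the 10 members described here (Ugt2b1, Ugt2b5, Ugt2b34, Ugt2b35, Ugt2b36, Ugt2b37, Ugt2b38, Ugt2a3, Ugt3a1 and Ugt3a2) were taken by name from 2 tables of raw read counts per gene. All 10 were listed in both tables, among 20775 genes of the first, 22709 of the second and 20093 in both. The tables hold 12 liver RNA-seq libraries of male C57BL/6N mice that carry floxed alleles of Elavl1 (HuR F/F), the gene of the RNA-binding protein HuR, and each group holds 3 livers. The groups were chow WT and chow HuRHep-/-, in mice on normal chow, and HFCF WT and HFCF HuRHep-/-, in mice given the HFCF diet, rich in fat, cholesterol and fructose, for 16 weeks (40 kcal% fat, 2% cholesterol and 20 kcal% fructose). Per the labels, mice of 4 to 6 months received an AAV8 vector with the hepatocyte promoter Tbg, which drove Cre in the HuRHep-/- groups and carried no Cre in the WT groups, so every mouse carried floxed alleles and an AAV8 vector. The study's methods describe a cross with albumin-Cre mice instead, and either route leaves Elavl1 of other liver cells in place. Chow and HFCF livers stand in separate tables, so that diet and table cannot be told apart.

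Glucuronidation is a major route by which the liver makes drugs, bilirubin, bile acids and steroids water-soluble. UGT enzymes of the endoplasmic reticulum move glucuronic acid from UDP-glucuronic acid onto such compounds, and the conjugates leave in bile or urine. The UGT1 enzymes come from a single locus with shared final exons, whereas the UGT2B enzymes have separate genes in a cluster. The UGT2B enzymes conjugate steroids, bile acids and many drugs, morphine among them. UGT3 enzymes belong to the same superfamily but use other UDP-sugars, such as the N-acetylglucosamine donor of human UGT3A1.

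In the GENCODE annotation of GRCm38, the 8 Ugt2 members lie in a cluster on chromosome 5, from Ugt2b34 (chr5:86889767-86906937) through Ugt2b1, Ugt2b35, Ugt2b36, Ugt2b5, Ugt2b37 and Ugt2a3 to Ugt2b38 (chr5:87409942-87424203). Of these only Ugt2b35 is on the plus strand. Ugt3a1 (chr15:9276888-9315032) and Ugt3a2 (chr15:9335550-9370955) are neighbours on the plus strand of chromosome 15. No other annotated gene overlaps any of the 10.

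Liver expression of this family is known to depend on the hepatocyte factor HNF1, whose sites are near-palindromes of GTTA and TAAC. A pattern of this kind, GTTANNNNTTAAC or its reverse complement GTTAANNNNTAAC, was searched in the 250 bases before each RefSeq transcript start (GRCm38.p6), and it was chosen after these promoters had been read, so that its presence in the members was fixed by that choice and is a description. It was present before the start of 8 of the 9 members with an entry, and of 54 of 27025 genes in all (0.2%), the 8 included. Ugt2a3 held no match, and Ugt3a2 had no entry. The 60 bases around each match are shown 5′ to 3′ on the gene's strand because they set out what the promoters share, with the match in capitals.
Ugt2b34 (chr5:86906963-86907022, minus): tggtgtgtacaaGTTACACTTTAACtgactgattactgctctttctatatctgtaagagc
Ugt2b1 (chr5:86926545-86926604, minus): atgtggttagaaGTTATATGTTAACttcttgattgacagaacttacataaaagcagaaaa
Ugt2b35 (chr5:87000778-87000837, plus): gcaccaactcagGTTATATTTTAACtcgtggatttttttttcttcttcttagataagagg
Ugt2b36 (chr5:87092572-87092631, minus): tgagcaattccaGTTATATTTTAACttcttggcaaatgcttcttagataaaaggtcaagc
Ugt2b5 (chr5:87140354-87140413, minus): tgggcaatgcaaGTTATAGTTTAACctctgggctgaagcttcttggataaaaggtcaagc
Ugt2b37 (chr5:87254819-87254878, minus): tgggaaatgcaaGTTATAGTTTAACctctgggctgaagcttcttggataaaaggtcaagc
Ugt2b38 (chr5:87424220-87424279, minus): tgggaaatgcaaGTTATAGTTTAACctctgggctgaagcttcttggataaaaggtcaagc
Ugt3a1 (chr15:9279687-9279746, plus): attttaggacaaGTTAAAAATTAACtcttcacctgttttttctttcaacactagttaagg
The stretches of Ugt2b37 and Ugt2b38 are the same in all 60 bases and that of Ugt2b5 differs from them at 1 base, whereas Ugt2b1 differs from Ugt2b5 at 26. A match is a run of letters and not a measured binding site.

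Ugt2b5, Ugt2b37 and Ugt2b38, the trio of the text that follows, are also nearly identical in the transcripts that were counted. Coding sequences of Ugt2b5 and Ugt2b38 were the same at 97.0% of bases, those of Ugt2b5 and Ugt2b37 at 94.7%, and those of Ugt3a1 and Ugt3a2 at 93.2%. Ugt2b35 and Ugt2b36 shared 86.1% to 89.0% with the trio, while Ugt2b1 and Ugt2b34 shared no more than 75.7% with any other member. The first 443 coding bases of Ugt2b5 and Ugt2b38 do not differ at all. Of all words of 31 bases in the transcript, 56.4% in Ugt2b5, 52.9% in Ugt2b38, 34.4% in Ugt2b37, 21.9% in Ugt3a1, 20.3% in Ugt3a2 and 13.5% in Ugt2b36 also occur in a transcript of another gene, against 8.05% or less in the other 4 members. How the authors counted reads that match several genes is not given in the sources used here, so the values of the trio and of the Ugt3 pair are uncertain as single genes, and their sums are given beside them. Bases 480 to 539 of the coding sequence show where Ugt2b37 can be told from the other two, and bases 1467 to 1526 where Ugt2b5 and Ugt2b38 differ most, with every base that differs within the trio in capitals.
Ugt2b5, 480 to 539 (chr5:87139768-87139827, minus): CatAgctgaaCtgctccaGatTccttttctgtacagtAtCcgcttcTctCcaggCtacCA
Ugt2b37, 480 to 539 (chr5:87254232-87254291, minus): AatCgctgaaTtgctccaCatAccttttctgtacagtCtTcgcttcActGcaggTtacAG
Ugt2b38, 480 to 539 (chr5:87423633-87423692, minus): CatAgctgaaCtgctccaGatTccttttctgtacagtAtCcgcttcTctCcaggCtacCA
Ugt2b5, 1467 to 1526 (chr5:87125280-87125339, minus): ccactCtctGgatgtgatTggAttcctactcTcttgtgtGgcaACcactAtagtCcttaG
Ugt2b37, 1467 to 1526 (chr5:87240827-87240886, minus): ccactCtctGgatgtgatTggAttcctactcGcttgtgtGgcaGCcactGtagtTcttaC
Ugt2b38, 1467 to 1526 (chr5:87410275-87410334, minus): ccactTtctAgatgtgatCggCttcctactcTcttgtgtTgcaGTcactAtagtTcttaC
For the Ugt3 pair, bases 239 to 298 differ at 16 positions, the most of any stretch of this length within an exon, again in capitals.
Ugt3a1, 239 to 298 (chr15:9292021-9292080, plus): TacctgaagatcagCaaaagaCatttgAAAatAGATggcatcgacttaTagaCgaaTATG
Ugt3a2, 239 to 298 (chr15:9351145-9351204, plus): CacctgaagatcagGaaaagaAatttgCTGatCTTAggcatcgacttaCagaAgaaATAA

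**Figure D1:**
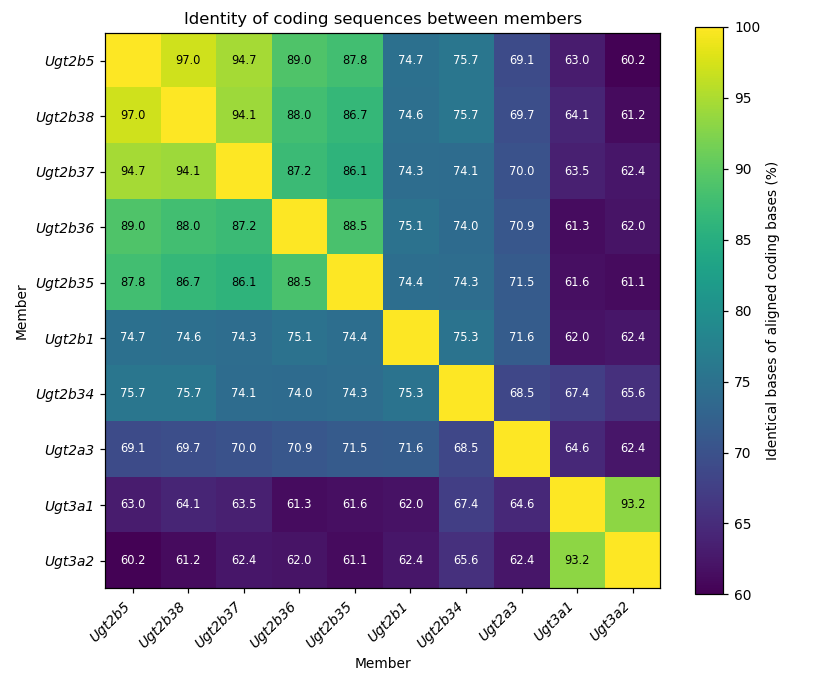
Share of aligned coding bases that are identical (%, colour and number) for every pair of the 10 members, from GENCODE transcripts. Ugt2b5, Ugt2b38 and Ugt2b37 form a block of 94.1% to 97.0%, Ugt3a1 and Ugt3a2 a pair at 93.2%, and Ugt2 members share 60.2% to 67.4% with Ugt3 members.

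Library totals ran from 30071731 to 35949203 counts. Elavl1, the targeted gene, was higher in livers labelled HuRHep-/-, at 38.8 to 42.8 CPM (counts scaled to a common library total) on chow against 29.3 to 30.99 in livers labelled WT, and at 32.2 to 34.2 against 23.9 to 27.0 on HFCF. The groups did not overlap on either diet, and the log2 differences were 0.41 ± 0.07 (SE) and 0.38 ± 0.07 (adjusted p = 0.0219 and 0.0327, limma with Benjamini-Hochberg adjustment). Leaving out single livers gave differences of 0.36 to 0.45, with an adjusted p between 0.0281 and 0.121. The gene totals thus go against the label, and because they do not separate exons they do not show whether the floxed part was lost, so genotype groups are called here by their labels. An exchange of the labels would turn every genotype difference given here, and it was not tested. Of the 5 hepatocyte markers in the tables (Alb, Apoa1, Ttr, Cps1 and Tat), none was called with genotype, 4 had lower estimates on each diet, and the summed level was lower in every liver labelled HuRHep-/- than in any labelled WT, at 66860 to 74090 against 82770 to 103000 CPM on chow and 54660 to 59030 against 59550 to 64040 on HFCF. Alb carried most of this sum, and without Alb the labels overlapped, at 17400 to 20540 against 19340 to 23580 CPM on chow and 13970 to 15340 against 15250 to 17840 on HFCF. The median difference of the 5 markers was -0.22 on chow and -0.05 on HFCF. In bulk liver, fewer hepatocytes and less RNA per hepatocyte cannot be told apart.

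Ugt2b5 was the most abundant member per length in every group, ahead of Ugt2b36 and Ugt2b1, and Ugt2b37 was the lowest. Per kilobase of merged exons and in chow livers labelled WT, Ugt2b5 stood at 547 ± 27 CPM (SD, n = 3), Ugt2b36 at 341 ± 30 and Ugt2b1 at 242 ± 31. Ugt2a3 followed at 128 ± 7.0, Ugt3a2 at 120 ± 3.6 and Ugt2b34 at 87.2 ± 3.1. Ugt2b35 (42.9 ± 5.6) and Ugt3a1 (42.7 ± 2.9) overlapped, the only neighbours in this order to do so in that group. Ugt2b38 (15.7 ± 16.2) and Ugt2b37 (1.68 ± 1.68) closed the order. Ugt2b5 made up 34.9% of the level per length of the 10 members on chow and 28.8% on HFCF in livers labelled WT. In chow livers labelled HuRHep-/-, no neighbours overlapped, Ugt2b34 stood above Ugt3a2, and Ugt2b35 above Ugt3a1. On HFCF, overlaps were more frequent, among them Ugt2b36 with Ugt2b1 and Ugt3a2 with Ugt2a3 in livers labelled WT, and Ugt2b5 with Ugt2b36 in livers labelled HuRHep-/-. Some ranks depend on the length used. Per kilobase of the longest transcript, Ugt3a2 stood above Ugt2a3 (159 against 128 CPM) and Ugt3a1 above Ugt2b35 (50.8 against 42.9) in chow livers labelled WT, and Ugt3a2 stood above Ugt2b34 under the HuRHep-/- label on chow (101 against 86.1) and on HFCF (85.5 against 69.0).

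**Figure D2:**
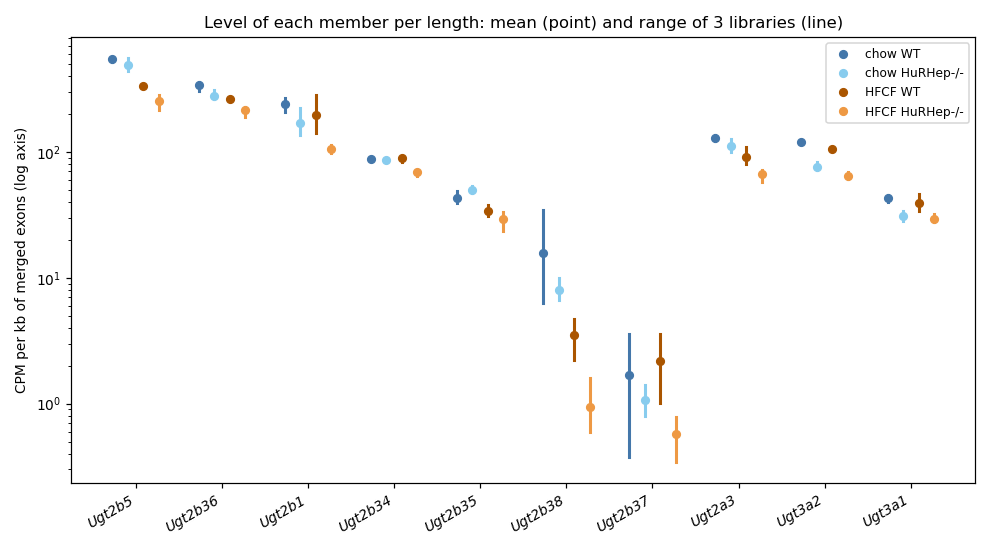
Level of each member in CPM per kilobase of merged exons (log axis), with the mean (point) and the range of 3 libraries (line) in the 4 groups. Ugt2b38 and Ugt2b37 have the lowest means in every group, and Ugt2b38 runs from 0.594 to 34.4 over all libraries, with its highest value in a chow liver labelled WT.

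Taken as a pool, the 10 members summed to 3719, 3619 and 3611 CPM in chow livers labelled WT and to 2795, 2873 and 3419 in chow livers labelled HuRHep-/-. On HFCF the sums were 2641, 3078 and 2660 against 2084, 2148 and 1784. The genotype groups did not overlap on either diet, and the third chow liver labelled HuRHep-/- lay nearest to the livers labelled WT. That liver also stood apart in the summed level of 18 acute-phase genes, at 19730 CPM against 29000 and 29410 in the other chow livers labelled HuRHep-/- and 20500 to 22830 in chow livers labelled WT. These sums of the members are dominated by Ugt2b5, Ugt2b36 and Ugt2b1.

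**Figure D3:**
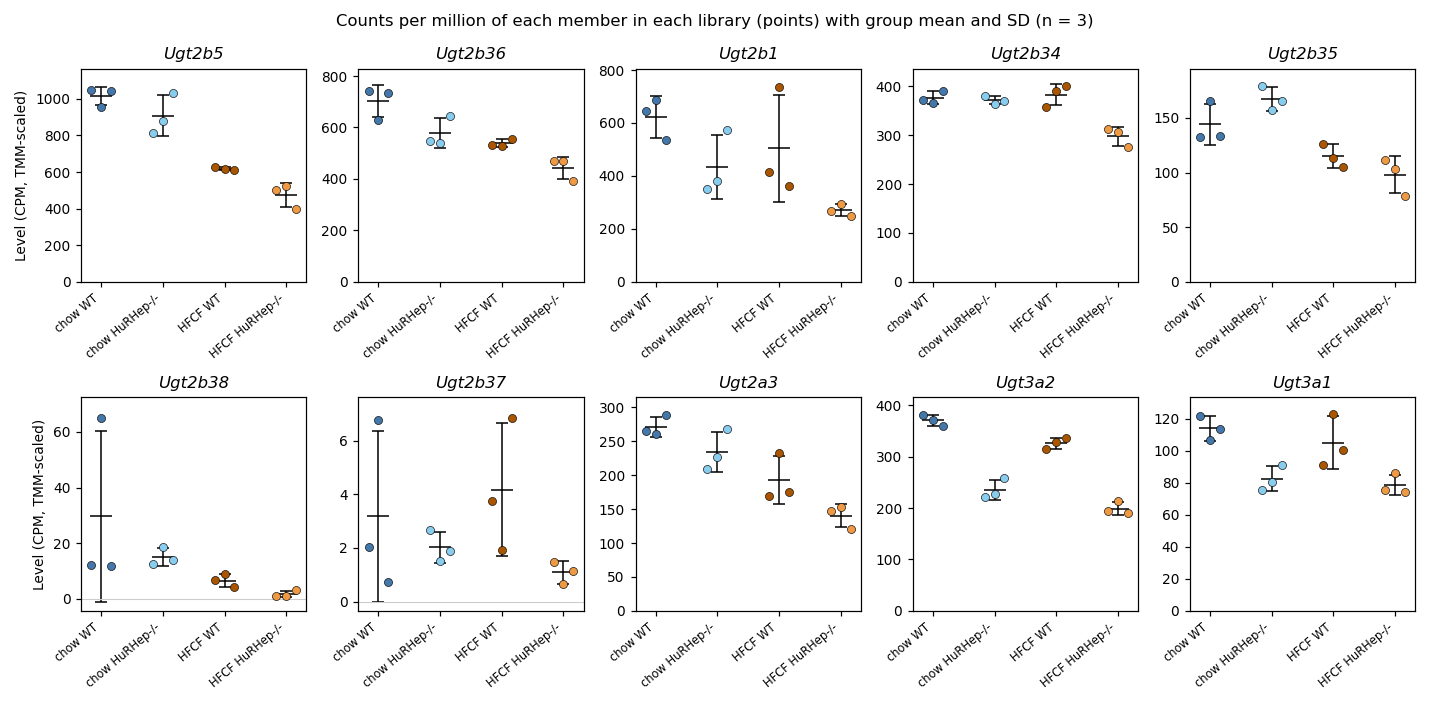
Level of each member in CPM (linear axis from 0, TMM-scaled over 12 libraries) in every library (points), with group mean and SD (n = 3). Ugt3a2 separates the genotype labels on both diets, Ugt2b5 separates the diets, and Ugt2b34 is low in the HFCF HuRHep-/- group, at 276 to 312 against 358 to 400 CPM in HFCF livers labelled WT.

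The comparison of genotype labels within a diet asks which members differ with hepatocyte HuR deletion as labelled. On chow, 2 of the 10 members were called (adjusted p of at most 0.05), Ugt3a1 and Ugt3a2, and both were lower in livers labelled HuRHep-/-. Of all 13526 genes tested, 4.23% were called and 1.94% were called lower. On HFCF, 3 members were called and all were lower, Ugt3a2, Ugt2b34 and Ugt2b38, where 6.79% of 14295 genes were called and 3.95% were called lower. The estimates of the members were lower in 9 of 10 on chow, with a median of -0.24, and in 10 of 10 on HFCF, with a median of -0.44, while the median of all genes was 0.00 on both. Values of 9 members did not overlap between the labels on HFCF, as in 36.2% of all genes, and of 2 members on chow, as in 29.3%. Library totals alone, without TMM factors, moved the median of all genes to 0.08 on chow and 0.15 on HFCF, and turned the chow estimate of Ugt2b34 above 0 while the other 9 members kept their direction on both diets. With 3 livers against 3, an exact permutation test of a single gene cannot go below p = 0.1, so the tests below come from limma fitted across all genes.

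Ugt3a2 had the smallest p of the members on both diets. It stood at 382, 372 and 360 CPM in chow livers labelled WT and at 222, 227 and 258 in chow livers labelled HuRHep-/-. On HFCF it stood at 314, 328 and 336 against 195, 213 and 190. Every liver labelled HuRHep-/- was below every liver labelled WT, also across the diets. Ugt3a2 fell by 0.65 ± 0.07 (log2, SE) on chow, or 1.57-fold, and by 0.73 ± 0.07 on HFCF, or 1.66-fold (adjusted p = 0.00944 and 0.00696, limma with Benjamini-Hochberg adjustment). Without the second chow liver labelled HuRHep-/- the adjusted p was 0.0592, and without the first HFCF liver labelled HuRHep-/- it was 0.0564, with differences of -0.62 and -0.71.

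Its neighbour Ugt3a1 had smaller estimates. Its levels were 122, 107 and 113 CPM against 75.7, 80.6 and 91.3 on chow, and 90.9, 123 and 100.5 against 75.4, 86.0 and 74.2 on HFCF. On each diet the labels did not overlap, although the highest HFCF liver labelled HuRHep-/- came close to the lowest labelled WT. The log2 difference was -0.46 ± 0.08 on chow (adjusted p = 0.0300, limma with Benjamini-Hochberg adjustment) and -0.42 ± 0.12 on HFCF, which missed the threshold (adjusted p = 0.0737) and passed in the fit on 12 libraries (0.0372). The chow call was lost without WT replicate 1 or 3 or HuRHep-/- replicate 1 or 2 (adjusted p of 0.0959, 0.0913, 0.0927 and 0.134). Summed, so that reads shared between the neighbours cannot move between them, the pair stood at 473 to 503.5 CPM against 298 to 349.6 on chow and at 405 to 452 against 264 to 299 on HFCF, again without overlap.

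The 3 abundant Ugt2b genes each had a lower mean in livers labelled HuRHep-/- on both diets, and none was called in the fits within each diet. Ugt2b1, the most variable of them, was at 644.5, 688 and 534 CPM against 349, 379 and 573 on chow. On HFCF it was at 413, 735.5 and 363 against 267, 294 and 251. A single liver stood apart on each diet, the third chow liver labelled HuRHep-/-, which overlapped the WT range, and the second HFCF liver labelled WT, which was far above its group, and the labels did not overlap on HFCF. The log2 differences of Ugt2b1 were -0.54 ± 0.19 and -0.84 ± 0.25 (adjusted p = 0.14 and 0.0794, limma with Benjamini-Hochberg adjustment). Without that chow liver the difference was -0.76 (adjusted p = 0.0259), without that HFCF liver it was -0.54 (adjusted p = 0.0366), and without HFCF WT replicate 3 it was -1.04 (adjusted p = 0.0425). The fit on 12 libraries called it on HFCF as well (-0.83, adjusted p = 0.0476).

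Ugt2b5 ranged over 958 to 1046 CPM against 815 to 1034 on chow and over 612 to 627 against 397 to 522 on HFCF. The labels overlapped on chow through the third liver labelled HuRHep-/- and did not on HFCF, where the difference was -0.41 ± 0.11 (adjusted p = 0.0695, limma with Benjamini-Hochberg adjustment, and 0.0437 in the fit on 12 libraries). Ugt2b36 ranged over 631 to 740 against 540 to 644 CPM on chow and over 529 to 556 against 393 to 469 on HFCF. Its differences were alike in size, -0.28 ± 0.10 and -0.30 ± 0.09, and both missed the threshold (adjusted p = 0.146 and 0.0801).

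Ugt2b34 and Ugt2b35 were the members with the smallest unadjusted p for a genotype difference that changed between the diets. Ugt2b34 stood at 372, 365 and 391 CPM against 381, 364 and 369 on chow, and at 358, 390 and 400 against 312, 306 and 276 on HFCF. The chow labels overlapped fully, with a difference of -0.01 and a 95% interval of -0.15 to 0.13, whereas all HFCF livers labelled HuRHep-/- were below all other 9 livers. On HFCF the difference was -0.38 ± 0.08, or 1.30-fold lower (adjusted p = 0.0377, limma with Benjamini-Hochberg adjustment). That call was lost when any 1 of the 6 livers was left out (adjusted p between 0.057 and 0.122), with differences of -0.41 to -0.32, and with upper-quartile factors (0.0546) or library totals alone (0.0907).

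Ugt2b35 was the only member with a higher estimate on chow in livers labelled HuRHep-/-, at 133, 166 and 134 CPM against 179, 157 and 165. On HFCF it was at 126, 114 and 105 against 112, 104 and 78.8. The labels overlapped on both diets, and neither difference was called (0.23 ± 0.10 and -0.26 ± 0.14, adjusted p = 0.228 and 0.26, limma with Benjamini-Hochberg adjustment). The HFCF difference was -0.10 (adjusted p = 0.558) without HuRHep-/- replicate 3, and -0.11 with library totals alone. The change of the genotype difference between the diets was -0.35 ± 0.10 for Ugt2b34 (unadjusted p = 0.00375 in the limma fit) and -0.46 ± 0.18 for Ugt2b35 (0.028). Over all 14535 genes neither passed (adjusted p = 0.185 and 0.292), and the interaction called 0 members and 0% of genes, with 2 members and 2086 genes at an unadjusted p under 0.05. With voom weights it called 1 gene and no member.

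The low members of the trio had the largest estimates on HFCF and rested on few reads. Ugt2b38 held 367, 1942 and 362 counts in chow livers labelled WT against 437, 605 and 453 in chow livers labelled HuRHep-/-. On HFCF it held 256, 289 and 133 against 45, 47 and 113. The second chow liver labelled WT was far above the rest, and the HFCF labels did not overlap. On HFCF the log2 difference was -1.98 ± 0.43, or 3.95-fold lower (adjusted p = 0.0428, limma with Benjamini-Hochberg adjustment), and on chow it was -0.49 ± 0.60 (adjusted p = 0.666) and turned to 0.33 without that WT liver. The HFCF call was lost without WT replicate 1 or 2 or HuRHep-/- replicate 1 or 2 (adjusted p of 0.11, 0.0804, 0.149 and 0.134) and in the fit on 12 libraries (0.0521).

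Ugt2b37 held 62, 202 and 22 counts against 92, 49 and 61 on chow, and 142, 63 and 215 against 59, 25 and 42 on HFCF. Its highest chow value was in the same liver as that of Ugt2b38. The HFCF groups did not overlap, and the difference of -1.84 ± 0.49 missed the threshold (adjusted p = 0.0651, limma with Benjamini-Hochberg adjustment) but passed without the WT liver of 63 counts (-2.31, adjusted p = 0.0359). Summed over Ugt2b5, Ugt2b37 and Ugt2b38, the chow livers labelled WT were at 1060, 1030 and 1057 CPM, so that the liver with high Ugt2b38 did not stand out in the sum. The trio summed to 830 to 1050 CPM in chow livers labelled HuRHep-/-, and on HFCF to 623 to 638 in livers labelled WT against 401 to 524 in livers labelled HuRHep-/-.

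Ugt2a3, whose human counterpart conjugates bile acids, was at 265, 261 and 288.5 CPM against 210, 227 and 267.5 on chow. On HFCF it was at 169, 233 and 175 against 147, 153 and 121. The labels overlapped on chow and did not on HFCF. Its differences of -0.21 ± 0.10 and -0.46 ± 0.14 were not called (adjusted p = 0.232 and 0.0915, limma with Benjamini-Hochberg adjustment). The chow difference was -0.14 without HuRHep-/- replicate 1 and -0.13 with library totals alone.

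**Figure D4:**
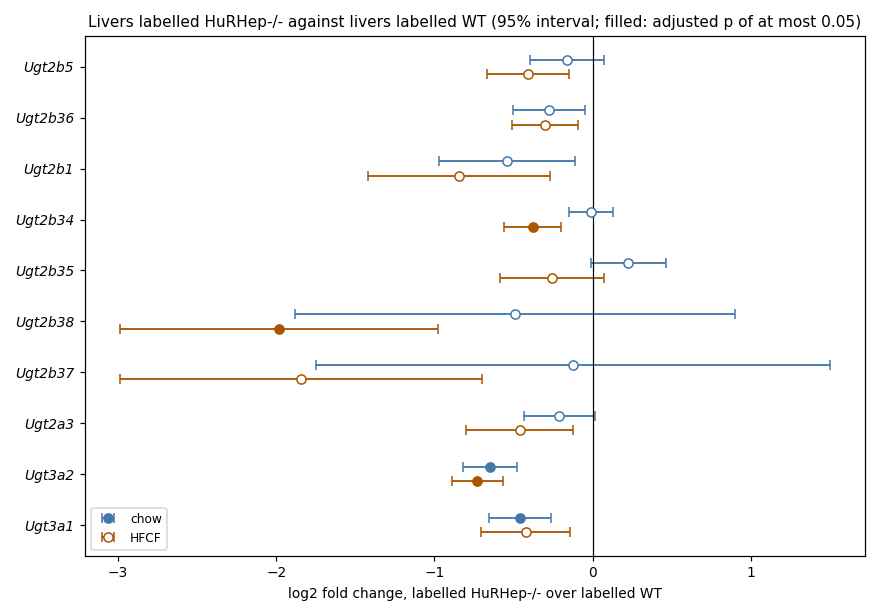
Log2 fold change of each member in livers labelled HuRHep-/- over livers labelled WT, on chow (blue) and on HFCF (brown), with 95% intervals and filled points for an adjusted p of at most 0.05. All HFCF points and 9 of 10 chow points lie below 0, that of Ugt2b34 on chow at -0.01 and above 0 with library totals alone, and Ugt3a2 and Ugt3a1 lie at similar places on both diets (-0.65 and -0.73, and -0.46 and -0.42).

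The hepatocyte marker sums given above, which Alb dominates, lay the same way as these differences, and their part in them was not tested. Of 12 male-biased liver genes, 6 had higher and 6 lower estimates on chow, with a median of 0.04 and 1 called, Mup20, a major urinary protein (1.13, adjusted p = 0.0131, limma with Benjamini-Hochberg adjustment). On HFCF 11 of 11 tested had lower estimates, with a median of -0.98 and 1 called. The summed level was 30970 to 36870 CPM in chow livers labelled HuRHep-/- against 20900 to 27260 labelled WT, and 8075 to 11000 against 11730 to 18190 on HFCF. Without Mup20 the sums overlapped on chow, at 14330 to 22570 against 14030 to 19470, and did not on HFCF, at 1497 to 2172 against 2412 to 6662. Of 12 female-biased liver genes none was called with genotype, with a median of -0.45 over the 6 tested on chow and 0.67 over the 9 tested on HFCF, and their sums overlapped on both diets (11.6 to 27.2 against 16.4 to 38.9 CPM, and 42.3 to 77.2 against 22.8 to 79.0).

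Of 18 acute-phase genes, which the liver induces in inflammation, 7 were called higher and 1 lower in chow livers labelled HuRHep-/-, with higher estimates in 16 and a median of 0.64. Mt1, a metallothionein, was higher by 2.44 and Itih4 by 0.93 on the log2 scale. On HFCF none was called higher and 2 lower, with higher estimates in 15 and a median of 0.26, and the sums were 15160 to 17130 against 14390 to 17880 CPM. The part of the acute-phase and sex-biased genes in the differences of the members was not tested.

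Kupffer cell and macrophage markers summed to 203 to 299.7 against 144 to 185 CPM on chow and 305 to 505 against 219.5 to 355 on HFCF, with higher estimates in 8 of 8 and none called. Of 5 cholangiocyte markers tested, 2 were called higher in HFCF livers labelled HuRHep-/-, Krt19 and Krt7. The cholangiocyte markers summed to 132.7 to 242 CPM there against 38.6 to 87.4, mostly through Spp1, which is also a marker of recruited lipid-associated macrophages, and without Spp1 to 17.4 to 26.9 against 7.88 to 11.7. On HFCF 1 of 5 markers of recruited lipid-associated macrophages was called higher, Cd9, and none of 6 of stellate cells or of 6 of lymphocytes. Estimates there were higher in 5 of 5, 5 of 6 and 6 of 6, with medians of 1.12, 0.46 and 1.08. The sums did not overlap for recruited macrophages (169 to 297 against 45.4 to 138 CPM) or lymphocytes (5.09 to 6.38 against 2.08 to 3.25). Those of stellate cells did (283 to 345 against 148 to 304). The part of these cells in the differences was not tested either.

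The second question was how the diet related to the members under each label, in the fit on 12 libraries. In livers labelled WT, 3 of 10 members were called and all fell on HFCF, Ugt2b5, Ugt2b36 and Ugt2a3, against 24.1% of 14535 genes called and 12.8% called lower. In livers labelled HuRHep-/- 7 were called and all fell, Ugt2b5, Ugt2b34, Ugt2b35, Ugt2b36, Ugt2b38, Ugt2a3 and Ugt3a2, against 38.9% called and 19.1% called lower. The median of the members was -0.34 and -0.69, and that of all genes 0.01 and 0.00. These 2 comparisons share no livers, but each shares its chow or HFCF livers with a genotype comparison. Library totals alone, without TMM factors, moved the median of all genes to 0.19 and 0.23, and left 4 members called in livers labelled HuRHep-/-, Ugt2b5, Ugt2b35, Ugt2b38 and Ugt2a3, while 6055 genes were called against 5649 with TMM factors.

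Ugt2b5 had the smallest p of the members for diet under both labels, going from 958 to 1046 CPM on chow to 612 to 627 on HFCF in livers labelled WT, and from 815 to 1034 to 397 to 522 in livers labelled HuRHep-/-. It fell by 0.72 ± 0.11 and 0.94 ± 0.11 on the log2 scale (1.64-fold and 1.92-fold, adjusted p = 0.0016 and 2.34e-04, limma with Benjamini-Hochberg adjustment). No chow liver overlapped an HFCF liver of either label. Both calls stayed in each of 12 fits that left out a liver and in all 9 other settings.

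Ugt2a3 fell by 0.51 ± 0.13 in livers labelled WT and by 0.74 ± 0.13 in livers labelled HuRHep-/- (adjusted p = 0.0172 and 0.00162, limma with Benjamini-Hochberg adjustment). The call in livers labelled WT was lost without chow WT replicate 3 or HFCF WT replicate 1 or 3 (adjusted p of 0.0615, 0.0659 and 0.065). Ugt2b36 fell by 0.38 ± 0.10 under both labels (adjusted p = 0.017 and 0.0103). In livers labelled WT that call was lost without chow replicate 1 or 3 (adjusted p of 0.0675 and 0.0623), and under both labels with library totals alone (0.0924 and 0.16).

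Ugt2b35, at 157 to 179 CPM on chow and 78.8 to 112 on HFCF in livers labelled HuRHep-/-, fell by 0.78 ± 0.13 there (adjusted p = 0.00114, limma with Benjamini-Hochberg adjustment). In livers labelled WT its difference of -0.32 ± 0.13 missed the threshold (adjusted p = 0.0916) and passed without HFCF HuRHep-/- replicate 3 (0.0424), which changes only the shared spread. Ugt2b34 fell by 0.32 ± 0.07 in livers labelled HuRHep-/- (adjusted p = 0.00393) and differed by 0.02 ± 0.07 in livers labelled WT (adjusted p = 0.822). With library totals alone these differences were -0.09 (adjusted p = 0.295) and 0.20 (0.0428).

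Ugt2b38 had the largest estimate of the members, a fall of 3.20 ± 0.59 in livers labelled HuRHep-/-, or 9.19-fold (adjusted p = 0.00187, limma with Benjamini-Hochberg adjustment). In livers labelled WT the difference was -1.73 ± 0.59 (adjusted p = 0.051). Without the high chow liver labelled WT that difference was -0.92 (adjusted p = 0.122), and it passed without chow WT replicate 1 or 3, HFCF WT replicate 2 or HFCF HuRHep-/- replicate 3 (0.0481, 0.0422, 0.0489 and 0.0436). For Ugt2b37 the diet intervals ran from -0.72 to 2.24 and from -2.41 to 0.55, and neither difference was called. In livers labelled HuRHep-/- its diets did not overlap, at 1.52 to 2.67 CPM on chow against 0.648 to 1.47 on HFCF. Leaving out single livers gave differences of -1.19 to -0.61 there, none of them called. Summed, the trio lay at 1030 to 1060 CPM on chow and 623 to 638 on HFCF in livers labelled WT.

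Ugt2b1 differed by -0.37 ± 0.24 and -0.65 ± 0.24 with diet (adjusted p = 0.288 and 0.051, limma with Benjamini-Hochberg adjustment). Without the high HFCF liver labelled WT both passed (-0.68 and -0.65, adjusted p of 0.0218 and 0.0103). The difference in livers labelled WT was -0.17 (adjusted p = 0.691) without HFCF WT replicate 3, and that in livers labelled HuRHep-/- was -0.43 (adjusted p = 0.197) without chow HuRHep-/- replicate 3. In livers labelled HuRHep-/- it also passed without chow HuRHep-/- replicate 1 (0.0422) or HFCF WT replicate 3 (0.0376), and with no filter (0.0494) or voom weights (0.0451).

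The Ugt3 genes had small estimates for diet. Ugt3a2 differed by -0.19 ± 0.07 in livers labelled WT (adjusted p = 0.0779, limma with Benjamini-Hochberg adjustment, and 0.0489 without chow HuRHep-/- replicate 3) and fell by 0.24 ± 0.07 in livers labelled HuRHep-/- (adjusted p = 0.0191). The latter call was lost without chow HuRHep-/- replicate 3 or HFCF HuRHep-/- replicate 1 or 3 (0.0756, 0.0625 and 0.0658), with upper-quartile factors (0.0678) and with library totals alone (0.862). Library totals alone left differences of -0.0058 and -0.015 under the 2 labels, a move about as large as that of the median of all genes (to 0.19 and 0.23). Ugt3a1 differed by -0.13 and -0.07, with intervals of -0.37 to 0.11 and -0.31 to 0.17, and library totals alone turned both above 0, again by about the shift of all genes. In livers labelled WT the difference was -0.03 without HFCF WT replicate 1 and -0.25 without HFCF WT replicate 2 (adjusted p = 0.871 and 0.0808). The genotype difference of Ugt3a2 changed by -0.06 between the diets, with an interval of -0.28 to 0.16, and that of Ugt3a1 by 0.06, with an interval of -0.28 to 0.40.

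**Figure D5:**
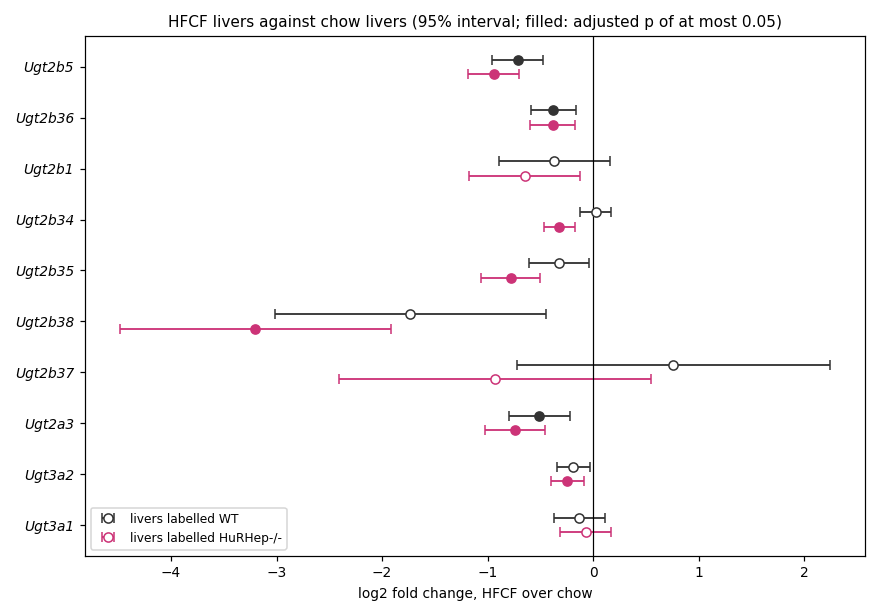
Log2 fold change of each member in HFCF over chow livers, in livers labelled WT (black) and labelled HuRHep-/- (pink), with 95% intervals and filled points for an adjusted p of at most 0.05. Ugt2b5 lies at -0.72 and -0.94, Ugt2b38 reaches -3.20, and Ugt3a1 lies near 0 under both labels.

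With diet, 5 of 5 hepatocyte markers had lower estimates under each label, and 2 were called lower under each (medians -0.54 and -0.43). Markers of other cells moved as well. Of 8 Kupffer cell and macrophage markers, 3 were called higher on HFCF under the WT label and 4 under the HuRHep-/- label, with sums as given above. Of 5 markers of recruited lipid-associated macrophages 2 were called higher under the WT label and 5 under the HuRHep-/- label (median 2.12). Of 5 cholangiocyte markers none was called in livers labelled WT and 5 were called higher in livers labelled HuRHep-/-. Of 6 stellate cell markers 1 and 6 were called higher (median 1.03 under the HuRHep-/- label), and of 6 lymphocyte markers 0 and 3. Of 18 acute-phase genes 2 were called higher and 5 lower in livers labelled WT, and 1 higher and 10 lower in livers labelled HuRHep-/-. Hepatocyte marker sums were lower in every HFCF liver than in any chow liver with Alb included. Without Alb the diets did not overlap under either label. These sums were 15250 to 17840 CPM on HFCF against 19340 to 23580 on chow in livers labelled WT. Under the HuRHep-/- label they were 13970 to 15340 against 17400 to 20540, so that diets overlapped only across the labels. Male-biased genes summed to 8075 to 18190 CPM on HFCF against 20900 to 36870 on chow, with 4 of 12 called lower under the WT label and 11 under the HuRHep-/- label. Of 9 female-biased genes tested, 1 was called lower under the WT label, and 4 were called higher and 1 lower under the HuRHep-/- label. Their part in the falls of the members was not tested.

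Other genes of the conjugation pathway were read from lists of names. Of 12 other Ugt genes, 7 were tested on chow, of which 1 was called higher and 2 lower in livers labelled HuRHep-/-, and of 8 on HFCF 1 was called lower. Ugt1a1, the bilirubin conjugating enzyme, was at 772 ± 37 against 471.5 ± 26 CPM on chow and at 608 ± 10 against 392 ± 46 on HFCF, with log2 differences of -0.71 and -0.66 (adjusted p = 0.00746 and 0.0189, limma with Benjamini-Hochberg adjustment). Ugt1a9 went the other way on chow, at 77.4 ± 11.6 against 171 ± 26 CPM (1.15, adjusted p = 0.0104), and Ugt1a5, named after its value was seen, was lower (-1.74, adjusted p = 0.0172). Ugt1a transcripts share their final exons, so reads there cannot be assigned to a single form. With diet, 3 of 8 were called lower in livers labelled WT, and 3 lower and 1 higher in livers labelled HuRHep-/-, Ugt1a9 among the lower (-1.52 and -1.27, adjusted p = 0.0038 and 0.00529) and Ugt1a10 in livers labelled WT (-1.41, adjusted p = 0.00544).

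Of 6 genes that supply UDP-glucuronic acid none was called with genotype on either diet, and with diet 1 was, Pgm1, a phosphoglucomutase, higher in livers labelled HuRHep-/- (0.62 ± 0.18, adjusted p = 0.018, limma with Benjamini-Hochberg adjustment). Of 2 genes of glucuronide cleavage, Gusb, the lysosomal glucuronidase, was called higher on HFCF in livers labelled WT (0.30 ± 0.07, adjusted p = 0.0143). Beside the members' median genotype differences of -0.24 on chow and -0.44 on HFCF, the medians were 0.03 and 0.03 for the supply genes, -0.22 and -0.20 for the other Ugt genes, -0.13 and -0.21 for carriers of conjugates, and -0.13 and -0.31 for sulfotransferases, and the lists were not tested against each other.

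Carriers take conjugates across the hepatocyte membrane, and sulfotransferases conjugate many of the same steroids. Of 7 carriers none was called with genotype on chow, and on HFCF 2 were called lower and 1 higher. Slco1b2, an uptake carrier of hepatocytes, was at 710 ± 70 against 477 ± 30 CPM (-0.59, adjusted p = 0.0235, limma with Benjamini-Hochberg adjustment), and Abcg2, a canalicular exporter, at 107 ± 4.6 against 83.8 ± 3.3 (-0.37, adjusted p = 0.0269). Slco1a4 was the higher carrier (1.05, adjusted p = 0.044). Of 7 sulfotransferases tested on HFCF, 2 were called lower, Sult2a8 at 432.5 ± 185 against 104.5 ± 41 CPM (-2.06, adjusted p = 0.0311) and Sult5a1 (-2.74, adjusted p = 0.0414), and of 6 on chow none was.

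With diet, 1 carrier was called higher and 1 lower in livers labelled WT, Abcg2 (0.47) and Slco1a4 (-1.67), and 2 were called higher and 3 lower in livers labelled HuRHep-/-. Slco1a1, a male-biased uptake carrier, was among the latter (-3.11, adjusted p = 0.00137, limma with Benjamini-Hochberg adjustment). Of 7 sulfotransferases, Sult1e1, the estrogen sulfotransferase, was called higher under both labels (2.61 and 4.86), and Sult2a8 and Sult5a1 were called lower in livers labelled HuRHep-/- (-2.67 and -3.29).

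Of 12 regulators none was called with genotype on either diet, where their median differences were -0.02 and -0.05. With diet, 2 were called higher and 4 lower in livers labelled WT, and 1 higher and 2 lower in livers labelled HuRHep-/-. Hnf4a, a master factor of hepatocyte genes, fell from 524 ± 42 to 369 ± 34 CPM in livers labelled WT (-0.51, adjusted p = 0.00256, limma with Benjamini-Hochberg adjustment) and was called lower under the HuRHep-/- label too (-0.47, adjusted p = 0.00199). Nfe2l2, which encodes Nrf2, was called higher under both labels (0.36 and 0.40), and Nr1h4, the bile acid receptor FXR, lower under both (-0.31 and -0.50). Ppara, the fatty acid sensor, was called higher under the WT label (0.59). Of 8 target genes of the receptors CAR, PXR and AhR and of Nrf2, none was called with genotype, and with diet 5 and 4 were called lower and 1 higher under each label, Nqo1, an Nrf2 target (0.68 and 1.22). Cyp1a2, an AhR target, was at 726 ± 60 on chow and 256.5 ± 104 CPM on HFCF in livers labelled WT (-1.57) and was lower under the HuRHep-/- label as well (-1.88), and Cyp2c55 was called lower in livers labelled WT (-2.07, adjusted p = 4.38e-04).

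Of the genes of these 7 lists that were called in a comparison, none turned its direction there in any setting tried. All 3 chow calls and all 6 HFCF calls with genotype were lost when some single liver was left out, as were 8 of 19 diet calls in livers labelled WT and 7 of 21 in livers labelled HuRHep-/-.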

How the data were processed

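Raw counts per gene, deposited by the authors in 2 tables, 1 for each diet, came from an alignment to GRCm38.p6 with CLC Genomics Workbench. They were text with commas between digits and were therefore not declared as plain counts, so the count test of the design gave way to limma 3.58.1 (R 4.3.3) on log2 CPM computed here, with a pseudocount of 0.5, TMM factors and a variance trend. Genes needed 10 counts in the median library in 3 libraries and 15 in all. Genotype was tested within each table, and diet and interaction on 12 libraries and genes of both tables. P-values were adjusted by Benjamini-Hochberg over all genes tested, and calls had an adjusted p of at most 0.05. Fits were tested on simulated data. Labels do not state how replicates arose, so p-values measure the spread between these samples. Positions and transcripts were from GENCODE and promoters from RefSeq. Alternatives were other scalings, filters, pseudocounts, voom, a replicate block and leaving out each liver. Named genes were the members, Elavl1 and, per list, up to 2 called genes with the smallest p in each comparison, up to 4 a list. Members and lists were chosen with earlier results of these data known.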

Additional observations from a re-analysis of the deposited data

How the results depend on the processing

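With 3 livers a group, calls rest on little spread. Leaving out each liver gave 0 to 3 called members for genotype on chow (2 with all livers), 0 to 3 on HFCF (3), 2 to 5 for diet in livers labelled WT (3), 6 to 8 in livers labelled HuRHep-/- (7) and 0 to 0 for the interaction. Genes called ranged over 9 to 535 (572), 28 to 1280 (971), 1979 to 3956 (3508), 4037 to 5964 (5649) and 0 to 41 (0). The lowest counts came without chow HuRHep-/- replicate 2 (0 members, 9 genes) and HFCF HuRHep-/- replicate 1 (0 members, 28 genes), and the cause was not tested. A fold change of at least 1.5 as well left 1 member and 311 genes on chow, 530 genes on HFCF, 1 member and 1442 genes for diet in livers labelled WT, and 4 members and 2855 genes in livers labelled HuRHep-/-. The fit on 12 libraries called 948 genes on chow, and 5 members and 1619 genes on HFCF. Library totals alone, added after the data were seen, called 4 members and 6055 genes for diet in livers labelled HuRHep-/- and 11 genes in the interaction, where no filter and voom weights called 1 gene each.

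Replicate numbers are shared between groups. Same-numbered livers of the 2 labels had correlated deviations of -0.0297, 0.109 and -0.00332 on chow and 0.0878, 0.188 and 0.0866 on HFCF, so the numbers were not taken to pair livers, although on HFCF each liver correlated best with its own number. With the replicate block, 1 member and 341 genes were called on chow, and 6 members and 1341 genes on HFCF. On chow Ugt3a1 was not called with the block (adjusted p = 0.0532). On HFCF Ugt2b1, Ugt2b37, Ugt2a3 and Ugt3a1 were (0.036, 0.0274, 0.0409 and 0.0304), and Ugt2b38 was not (0.0528). For diet in livers labelled WT, Ugt2b38 was (0.0439).

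Differences that turned were all outside the threshold. For Ugt2b34 on chow, library totals alone gave 0.068 and leaving out livers -0.034 to 0.015, and its diet difference in livers labelled WT ran from -0.0083 to 0.072 without single livers. On chow, leaving out livers gave -0.91 to 0.70 for Ugt2b37 and -0.91 to 0.33 for Ugt2b38. The diet difference of Ugt2b37 in livers labelled WT ran likewise from -0.020 to 1.58. For Ugt3a1, library totals alone gave diet differences of 0.051 and 0.16, upper-quartile factors 0.0086 in livers labelled HuRHep-/-, and leaving out livers -0.14 to 0.0051 there. In the interaction, leaving out livers gave -0.48 to 0.026 for Ugt2b1, -0.048 to 0.080 for Ugt2b36, -0.038 to 0.18 for Ugt3a1, -0.11 to 0.0090 for Ugt3a2 and -0.036 to 0.052 for Elavl1. Upper-quartile factors, library totals alone and 10 counts in every library gave 0.028, 0.046 and 0.014 there for Ugt2b36 and 0.026, 0.044 and 0.012 for Elavl1.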
